A study of Mus musculus with 6 samples.

Results

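Heat shock proteins and their co-chaperones were followed in circulating neutrophils of mice with and without experimental periodontitis. The members were the genes of the deposited table that carry a protein-coding annotation and whose symbol begins with *Hspa*, *Hspb*, *Hspd*, *Hspe*, *Hsph*, *Hsp90* or *Dnaj*. This rule gave 70 of the 29097 genes listed, and it used no measured value. Ligature-induced periodontitis (LIP) was produced in young adult male C57BL/6 wild-type mice by silk ligatures around the second molars of both jaws, kept for 14 d, and control mice (Ctrl) received no ligature over the same time. CD45+CD11b+Ly6G+ neutrophils were sorted from peripheral blood (PB), those of several mice were pooled for each library, and 3 Ctrl and 3 LIP libraries were made by Smart-seq2, which amplifies full-length mRNA without molecular identifiers. No allele other than wild type and no drug was present in either group.

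Chaperones of the HSP70 family bind exposed hydrophobic stretches of unfolded proteins in a cycle driven by ATP. J proteins, encoded by the *Dnaj* genes, bring clients to HSP70 and stimulate its ATPase, and nucleotide exchange factors such as the HSP110 proteins release them again. HSP90 acts later, on nearly folded kinases and receptors, and each compartment has its own set: inducible and constitutive forms in the cytosol, BiP and GRP94 in the endoplasmic reticulum (ER), and mortalin with the HSP60 and HSP10 chamber in mitochondria. Heat shock factor 1 drives the inducible genes through heat shock elements, and the unfolded protein response drives the ER genes through ER stress elements.

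Total counts lay between 52186555 and 57262379 per library, so depth was nearly even. Haemoglobin genes took 14.6% to 15% of the counts in Ctrl and 1.55% to 1.61% in LIP. The summed FPKM (fragments normalized to gene length and library depth, a level per length) of 13 B cell markers was 11056 to 12030 in Ctrl and 1827 to 1840 in LIP, and that of 21 mature neutrophil markers was 18384 to 21809 and 63633 to 68403. No marker of these lists was at 0 in all libraries, the 13 B cell and 10 tested erythroid markers were all lower in LIP, and the 21 neutrophil markers were all higher. In such bulk libraries, fewer cells of a type and less RNA per cell cannot be told apart, and the part of other blood cells in the changes below was not tested. Fold changes were computed on counts scaled to the TMM-normalized library size (CPM), on which the median gene tested had a log2 fold change of -0.09 (LIP over Ctrl). With plain library totals that median was -0.42, and with libraries scaled on the 21 neutrophil markers it was -1.97, so changes are also given relative to the median gene. FPKM follows plain library totals, so FPKM levels and sums place LIP lower against Ctrl than the TMM-scaled fold changes do. The neutrophil scaling takes marker RNA per neutrophil as equal in both groups, which was not tested. It lowers every gene alike, so a gene that rose less than these markers turns negative by construction. Adjusted p-values come from edgeR's quasi-likelihood test over all 10440 genes whose FPKM averaged at least 1. Nothing in the labels tells that the pools of a group came from separate experiments, and p-values measure the spread between these libraries.

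Chaperone transcripts took a smaller share of the LIP libraries. The 70 members made up 1.22% to 1.26% of counts in Ctrl and 0.694% to 0.753% in LIP, and their summed FPKM was 3085 to 3227 in Ctrl and 1648 to 1804 in LIP, with no overlap between groups. Of the 52 members that reached this mean, 23 were lower in LIP, 9 were higher and 20 did not pass the test, where 27.2% of all genes tested were lower, 26.5% higher and 53.6% called in either direction. The CPM of the 2 groups did not overlap for 40 of the 52, against 63.4% of all genes tested. Their median log2 fold change was -0.40, or -0.31 relative to the median gene. The split depended on the scaling: 6 were higher and 34 lower with library totals, and 0 higher and 51 lower when libraries were scaled on the neutrophil markers. All genes moved likewise, with 1919 higher under library totals, and 43 higher and 9371 lower under the neutrophil scaling. Of the 32 members called, 23 kept the call in each of the 6 fits that left out 1 library.

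**Figure D1:**
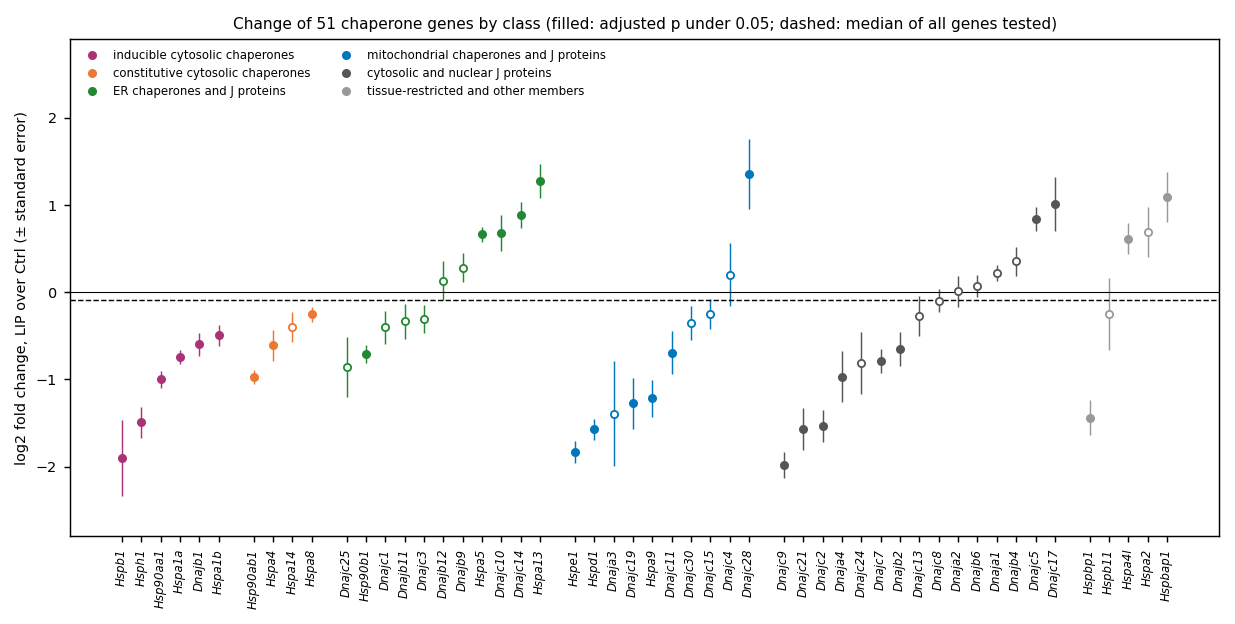
Log2 fold change (LIP over Ctrl, y axis) with its standard error for 51 of the 52 tested members, ordered within 6 classes. Filled points passed an adjusted p of 0.05 in edgeR, and the dashed line is the median of all genes tested (-0.09). All 6 inducible cytosolic members lie below it. The 9 filled points above 0 fall below 0 when libraries are scaled on neutrophil markers, which lowers every gene alike.

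The levels per length differed by orders of magnitude among the members. *Hsp90ab1* was highest in Ctrl, at 739 ± 24.6 FPKM (SD, n = 3), followed by *Hspa8* at 468 ± 23.1, *Hsp90aa1* at 364 ± 37.0, *Hspa1a* at 324 ± 7.54 and *Hspa5* at 149 ± 9.89. In LIP, *Hspa8* and *Hsp90ab1* stood at 317 ± 29.7 and 305 ± 16.5 FPKM, closer than their spread. *Hspa5* stood at 191 ± 9.98, *Hspa1a* at 157 ± 7.30 and *Hsp90aa1* at 147 ± 8.04 FPKM in LIP. A total of 26 members had a mean of at least 10 FPKM over the 6 libraries.

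**Figure D2:**
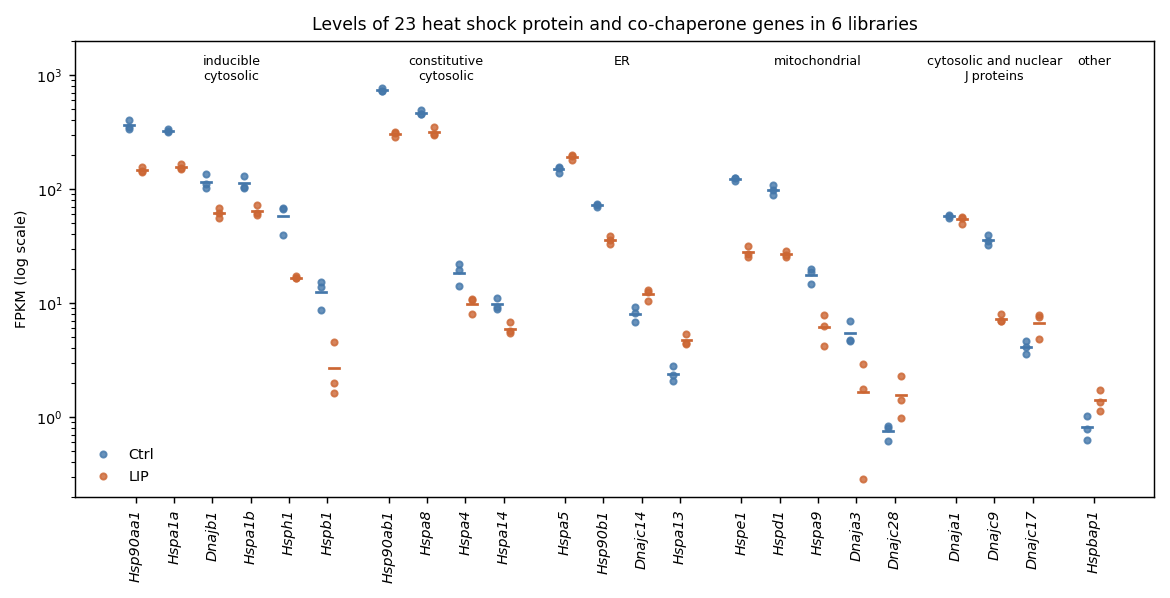
FPKM (log axis) of 23 named members in each Ctrl and LIP library, with a bar at the group mean, ordered by class. The 6 inducible cytosolic genes and the mitochondrial *Hspe1*, *Hspd1* and *Hspa9* are lower in every LIP library, *Hspa5* is higher in every LIP library on this scale (lower with neutrophil scaling), and 1 LIP library of *Dnaja3* lies far below the others at 0.283 FPKM.

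All 6 inducible cytosolic chaperones were lower in LIP, with no overlap between groups. Their median log2 fold change was -0.87, or -0.78 relative to the median gene, and their FPKM summed to 987 ± 40.7 in the Ctrl libraries and 449 ± 17.8 in the LIP libraries (SD, n = 3 each). The inducible HSP70 is encoded by *Hspa1a* (ENSMUSG00000091971, chromosome 17 from 34969190 to 34972156, GRCm38, minus strand) and *Hspa1b* (ENSMUSG00000090877, from 34956436 to 34959238), neighbours that lie 9951 bases apart on the same strand. Both were lower in LIP, but such copies may share reads, so these are not separate observations. The 120 bases before each start (RefSeq, GRCm38.p6, minus strand) are shown because the copies are nearly the same. They differ in 1 base, in capitals, and over 300 bases around the start they differ in 4.
Hspa1a, chr17:34972157-34972276: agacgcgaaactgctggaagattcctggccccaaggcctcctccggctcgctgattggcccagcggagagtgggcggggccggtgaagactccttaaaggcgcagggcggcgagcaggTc
Hspa1b, chr17:34959239-34959358: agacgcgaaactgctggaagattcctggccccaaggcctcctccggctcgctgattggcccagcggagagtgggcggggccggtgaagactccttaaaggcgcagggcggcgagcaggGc

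*Hspa1a* had 908, 973 and 921 CPM in the Ctrl libraries and 550, 586 and 537 in the LIP libraries, so every LIP library lay below every Ctrl library. It was 1.67-fold lower (log2 fold change -0.74, standard error 0.0826, adjusted p = 3.39e-05, edgeR). *Hspa1b* had 344, 282 and 286 CPM in Ctrl and 243, 198 and 206 in LIP, a 1.41-fold difference (log2 -0.50, standard error 0.122, adjusted p = 0.00602, edgeR). Because near-identical copies share reads, the way counting divided them between *Hspa1a* and *Hspa1b* is uncertain, and their sum is used in the ratios below. The third gene of this cluster, *Hspa1l*, known from testis, starts 546 bases from *Hspa1a* on the opposite strand and stayed under the filter, with 0.818 ± 0.327 FPKM in Ctrl and 0.239 ± 0.131 in LIP.

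The other inducible cytosolic genes were lower too. *Hsp90aa1*, the inducible HSP90, had 1309, 1570 and 1283 CPM in Ctrl and 668, 734 and 679 in LIP, a 2.0-fold difference (log2 -1.0, standard error 0.0975, adjusted p = 1.33e-05, edgeR). *Hsph1*, an HSP110 exchange factor, had 464, 285 and 482 CPM in Ctrl and 150, 143 and 144 in LIP. Its Ctrl library 2 was low, yet the groups did not overlap, and the gene was 2.81-fold lower (log2 -1.49, standard error 0.177, adjusted p = 5.35e-05, edgeR). *Dnajb1*, the J protein that pairs with inducible HSP70, had 312, 427 and 342 CPM in Ctrl and 240, 261 and 213 in LIP (log2 -0.60, standard error 0.133, adjusted p = 0.00356, edgeR). *Hspb1*, a small heat shock protein that holds unfolded clients without ATP, was scarce, with 8.64, 15.6 and 13.7 CPM in Ctrl and 5.63, 2.47 and 2.03 in LIP (log2 -1.90, standard error 0.435, adjusted p = 0.00405, edgeR). These 6 calls held in each fit without 1 library.

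Of the 4 constitutive cytosolic chaperones, 3 were lower and 1 was not called, with a median of -0.50, or -0.41 relative to the median gene. Their FPKM summed to 1235 ± 45.1 in the Ctrl libraries and 637 ± 37.7 in the LIP libraries (SD, n = 3 each). *Hsp90ab1*, the constitutive HSP90 (ENSMUSG00000023944, chromosome 17 from 45567775 to 45573271), had 2089, 2263 and 2096 CPM in Ctrl and 1151, 1112 and 1028 in LIP. All 3 LIP libraries lay far below the Ctrl libraries, a 1.96-fold difference (log2 -0.97, standard error 0.0785, adjusted p = 3.59e-06, edgeR). *Hspa8*, the constitutive HSC70 that also uncoats clathrin vesicles, had 1868, 2093 and 1894 CPM in Ctrl and 1537, 1806 and 1563 in LIP. The groups came close without overlapping, and the difference was small (log2 -0.26, standard error 0.0875, adjusted p = 0.0305, edgeR). Without Ctrl replicate 2 or 3 or LIP replicate 1 or 3, the adjusted p for *Hspa8* was 0.0666, 0.059, 0.118 and 0.104 (edgeR), and DESeq2 gave 0.0793.

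*Hspa4*, an HSP110 exchange factor, had 115, 76.7 and 105 CPM in Ctrl and 71.6, 69.7 and 53.1 in LIP (log2 -0.61, standard error 0.176, adjusted p = 0.0141, edgeR). That call was lost without Ctrl replicate 1 or 3 or LIP replicate 3, where the adjusted p was 0.0555, 0.0521 and 0.0561 (edgeR). *Hspa14*, the HSP70 of the ribosome-associated complex, had 34.0, 44.2 and 36.8 CPM in Ctrl and 28.0, 32.9 and 26.4 in LIP and did not pass (log2 -0.40, standard error 0.175, adjusted p = 0.0779, edgeR), although its groups did not overlap. With library totals it passed, at -0.72 (adjusted p = 0.00508, edgeR).

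The ER members did not move together. Of 11 tested, 4 were higher, 1 was lower and 6 did not pass, with a median of 0.13 or 0.23 relative to the median gene. That relative median was 0.14 without Ctrl replicate 1 and turned to -0.14 when only genes with a mean FPKM of 5 or more were tested. Their FPKM summed to 335 ± 22.0 in the Ctrl libraries and 331 ± 18.2 in the LIP libraries (SD, n = 3 each), which differed by less than the spread between libraries. These sums follow library totals, on which the median log2 fold change of the 11 tested was -0.19, not the TMM scale that gave 0.13. With library totals 3 were higher and 5 lower, and with neutrophil scaling 0 were higher and 11 lower. Under neutrophil scaling 9371 of all 10440 genes tested were lower. The main BiP and GRP94 genes went opposite ways. In these promoters 3 of the 57 members with a RefSeq promoter hold an ER stress element, in its strict form a CCAAT box, 9 bases and CCACG on either strand, and all 3 are ER members, whereas 0.137% of the 27025 genes with a promoter hold one. Each site is shown in 30 bases, with the element in capitals, because genes that share it had different changes in LIP. The proximal site of *Hsp90b1* is in the reverse orientation, and that of *Hspa5* lies before the RefSeq start but inside the deposited gene span.
Hspa5, chr2:34772019-34772048, plus strand: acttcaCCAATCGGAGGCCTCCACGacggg
Hsp90b1, distal, chr10:86705633-86705662, minus strand: acaagcCCAATCGCAAGGAGCCACGcttcg
Hsp90b1, proximal, chr10:86705528-86705557, minus strand: agagtgCGTGGTGAGGCACGATTGGtgagt
Dnajc3, chr14:118937821-118937850, plus strand: ccacaaCCAATCAGCGCCAACCACGacccg

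*Hspa5*, which encodes BiP, the HSP70 of the ER lumen (ENSMUSG00000026864, chromosome 2 from 34771970 to 34777547), had 618, 572 and 640 CPM in Ctrl and 1011, 986 and 908 in LIP. Every LIP library lay above every Ctrl library, and it was 1.59-fold higher (log2 0.67, standard error 0.0867, adjusted p = 0.000104, edgeR), a call kept with library totals (log2 0.34) and turned to lower by neutrophil scaling (log2 -1.21). *Hsp90b1*, which encodes GRP94, the HSP90 of the ER that folds integrins and Toll-like receptors (ENSMUSG00000020048, chromosome 10 from 86690209 to 86705509), had 280, 279 and 291 CPM in Ctrl and 161, 187 and 172 in LIP. It was 1.63-fold lower (log2 -0.71, standard error 0.101, adjusted p = 0.000199, edgeR). *Dnajc3*, the third holder of the element and a J protein that serves BiP, had 59.3, 79.7 and 65.1 CPM in Ctrl and 50.9, 63.7 and 50.1 in LIP, groups that overlapped (log2 -0.31, standard error 0.158, adjusted p = 0.12, edgeR).

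*Hspa13*, an HSP70-like protein of microsomes, rose most among the ER members, from 13.6, 15.8 and 18.6 CPM to 35.8, 43.8 and 36.6, without overlap (2.42-fold, log2 1.28, standard error 0.193, adjusted p = 0.000295, edgeR), and had a log2 value of -0.60 with neutrophil scaling. *Dnajc14*, a J protein of the ER membrane, had 50.8, 44.1 and 58.5 CPM in Ctrl and 98.7, 102 and 82.4 in LIP (log2 0.89, standard error 0.148, adjusted p = 0.000571, edgeR), and -0.99 with neutrophil scaling. It overlaps *Ormdl2*, *Tmem198b* and *Sarnp*, from which its reads may not be told apart. *Dnajc10*, an ER reductase with a J domain, was the fourth called higher (log2 0.68, standard error 0.208, adjusted p = 0.0186, edgeR), lost the call without Ctrl replicate 2 or LIP replicate 1 (adjusted p = 0.0567 and 0.0691, edgeR), and turned to -1.19 with neutrophil scaling. The remaining 5 tested, the BiP partners *Dnajb9*, *Dnajb11* and *Dnajc1* with *Dnajb12* and *Dnajc25*, had log2 values of 0.28, -0.33, -0.40, 0.13 and -0.86 and did not pass.

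Of 10 mitochondrial members tested, 5 were lower, 1 was higher and 4 did not pass, with a median of -0.96, or -0.86 relative to the median gene and -0.70 without LIP replicate 1, a setting in which the inducible cytosolic median was -0.77. Their FPKM summed to 279 ± 13.2 in the Ctrl libraries and 85.8 ± 4.33 in the LIP libraries (SD, n = 3 each). *Hspd1* (HSP60, chromosome 1 from 55077835 to 55088243, minus strand) and *Hspe1* (HSP10, from 55088132 to 55091307, plus strand) form the folding chamber of the matrix and its lid. Both start in the same short stretch in opposite directions, and the annotated genes overlap by 112 bases. A heat shock element lies before the RefSeq start of *Hspe1* and before 1 of the starts of *Hspd1*, and outside the promoter window of the other *Hspd1* start. It is shown from either strand, with the alternating units in capitals, because it lies in a window of both genes and both were lower in LIP.
Hspe1, chr1:55088053-55088082, plus strand: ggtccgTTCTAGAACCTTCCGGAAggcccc
Hspd1, chr1:55088053-55088082, minus strand: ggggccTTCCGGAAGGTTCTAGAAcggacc

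*Hspe1* had 167, 183 and 179 CPM in Ctrl and 47.9, 44.9 and 55.5 in LIP, a 3.56-fold difference (log2 -1.83, standard error 0.124, adjusted p = 1.2e-06, edgeR). *Hspd1* had 223, 256 and 280 CPM in Ctrl and 92.0, 79.4 and 83.8 in LIP, a 2.97-fold difference (log2 -1.57, standard error 0.123, adjusted p = 2.85e-06, edgeR). Neither pair of groups came near to overlapping. *Hspa9*, mortalin, the HSP70 of the import motor, had 80.9, 62.2 and 77.9 CPM in Ctrl and 21.9, 40.4 and 32.6 in LIP (log2 -1.22, standard error 0.216, adjusted p = 0.000864, edgeR). *Dnajc19*, a J protein of that motor, was also lower (log2 -1.27, standard error 0.294, adjusted p = 0.00427, edgeR), and overlaps *Fxr1*.

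*Dnajc11* was lower with the call in 1 of the 6 fits without 1 library, the one without Ctrl replicate 2 (log2 -0.70, adjusted p = 0.0352 with all libraries, at most 0.119 without 1, edgeR). *Dnaja3*, a J partner of mortalin, had 25.8, 18 and 17.9 CPM in Ctrl and 1.35, 13.8 and 8.35 in LIP. LIP library 1 was far below the rest, the groups did not overlap, and the gene did not pass (log2 -1.39, standard error 0.599, adjusted p = 0.072, edgeR). Without LIP replicate 1 the log2 value was -0.89 with an adjusted p of 0.0288, and without LIP replicate 2 it was -2.09 with 0.0235 (edgeR). *Dnajc28* was the mitochondrial member called higher, at 2.72, 2.22 and 2.9 CPM in Ctrl and 4.20, 9.84 and 6.02 in LIP (log2 1.35, standard error 0.400, adjusted p = 0.0156, edgeR), and -0.53 with neutrophil scaling. It lost the call without Ctrl replicate 2 or LIP replicate 2 (adjusted p = 0.053 and 0.0763, edgeR). *Dnajc30*, *Dnajc4* and *Dnajc15* had log2 values of -0.35, 0.20 and -0.25 and did not pass.

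Of the 15 cytosolic and nuclear J proteins tested, 6 were lower, 2 higher and 7 not called, with a median of -0.27 or -0.17 relative to the median gene. That relative median was -0.31 without LIP replicate 2 and -0.11 without LIP replicate 3, and turned to 0.0171 with no filter on low values. The most abundant of them by FPKM, *Dnaja1*, a J protein for HSC70, had 474, 506 and 465 CPM in Ctrl and 517, 586 and 576 in LIP. The groups did not overlap, the difference did not pass (log2 0.22, standard error 0.0911, adjusted p = 0.0664, edgeR), and its sign turned to -0.10 with library totals, -0.09 in limma and -1.66 with neutrophil scaling. Without Ctrl replicate 2 it passed (adjusted p = 0.0181, edgeR), as it did in DESeq2 (adjusted p = 0.0319). *Dnajc9*, which chaperones histones and is high in dividing cells, had 79.9, 92.9 and 74.2 CPM in Ctrl and 19.9, 22.7 and 19.8 in LIP, a 3.96-fold difference (log2 -1.98, standard error 0.149, adjusted p = 2.21e-06, edgeR).

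*Dnajc2*, which holds HSP70 at the ribosome exit together with *Hspa14*, had a log2 fold change of -1.53, and *Dnajc21*, which takes part in ribosome maturation, one of -1.57, with adjusted p-values of 5.15e-05 and 0.000307 (edgeR). *Dnajc7*, which links HSP70 with HSP90, was lower at -0.79 (adjusted p = 0.000844, edgeR) and overlaps *Cnp* and *Nkiras2*. *Dnajb2* and *Dnaja4*, at -0.65 and -0.97, lost the call without Ctrl replicate 3 (adjusted p = 0.0856 and 0.0729, edgeR), and *Dnaja4* also without LIP replicate 2 (adjusted p = 0.0568, edgeR). *Dnajc5*, the cysteine string protein of secretory vesicles, was higher, with 102, 78.8 and 94.4 CPM in Ctrl and 159, 184 and 149 in LIP (log2 0.84, standard error 0.135, adjusted p = 0.000471, edgeR), and -1.04 with neutrophil scaling. *Dnajc17* was the other, at 5.15, 6.04 and 4.54 CPM against 12.4, 11.7 and 7.58 (log2 1.01, standard error 0.312, adjusted p = 0.0192, edgeR), with -0.87 under neutrophil scaling and no call without Ctrl replicate 3 or LIP replicate 2 (adjusted p = 0.0697 and 0.0591, edgeR). *Dnajc8*, *Dnaja2*, *Dnajb6*, *Dnajb4*, *Dnajc24* and *Dnajc13* had log2 values from -0.81 to 0.35 and did not pass.

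Of the remaining members, 6 of 16 were tested, and 2 were lower, 2 higher and 2 not called. *Hspbp1*, an exchange factor for HSP70, had 27.6, 36.9 and 30.1 CPM in Ctrl and 12.2, 12.1 and 10.6 in LIP (log2 -1.44, standard error 0.203, adjusted p = 0.000186, edgeR). *Hspbap1*, a partner of HSPB1, was higher, with 9.18, 7.28 and 5.79 CPM in Ctrl and 15.3, 19.5 and 12.7 in LIP (log2 1.09, standard error 0.285, adjusted p = 0.00829, edgeR), and -0.79 with neutrophil scaling. *Hspa4l*, an HSP110 relative of *Hspa4*, was higher at 0.61 (adjusted p = 0.0148, edgeR), lost the call without Ctrl replicate 3 or LIP replicate 1 (adjusted p = 0.0592 and 0.0519, edgeR), and was at -1.26 with neutrophil scaling. *Hspa2* and *Hspb11* had log2 values of 0.69 and -0.25 and did not pass.

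The 18 members under the filter were not tested. They include the small heat shock proteins *Hspb3*, *Hspb6*, *Hspb8* and *Hspb9*, known mainly from muscle and testis, the HSP70 relatives *Hspa12a* and *Hspa12b*, and *Dnajb3*, *Dnajb7* and *Dnajb13*. The others besides *Hspa1l* were the ER members *Dnajb14*, *Dnajc16* and *Dnajc18* and the J proteins *Dnajb5*, *Dnajc6*, *Dnajc12*, *Dnajc22* and *Dnajc27*. None was at 0 in all libraries, 7 had a read in every library, and *Dnajc22*, *Hspa12a* and *Hspb3* had none in the LIP libraries.

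Ratios of member pairs within a library need no scaling between libraries and were tested by exact permutation of the libraries (two-sided). With 3 against 3 such a test gives no p under 0.1, so that none of the 6 ratios could reach 0.05. The inducible *Hspa1a* and *Hspa1b* together stood at 0.987, 0.881 and 0.937 of the FPKM of *Hspa8* in Ctrl and at 0.762, 0.638 and 0.701 in LIP. The inducible share was thus lower in every LIP library (log2 difference -0.42, exact p = 0.1, adjusted over 6 ratios p = 0.15). For HSP90 it was not: *Hsp90aa1* over *Hsp90ab1* was 0.478, 0.529 and 0.467 in Ctrl and 0.442, 0.504 and 0.504 in LIP, with overlapping groups (log2 difference -0.02, exact p = 0.8, adjusted p = 0.8). Its sign turned to 0.03 without Ctrl replicate 2 and to 0.04 without LIP replicate 1.

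Between compartments the ratios moved apart. *Hspa5* over *Hspa8* was 0.336, 0.278 and 0.344 in Ctrl and 0.669, 0.555 and 0.590 in LIP, 1.9-fold higher and apart in every library (log2 difference 0.92, exact p = 0.1, adjusted p = 0.15). *Hsp90b1* over *Hsp90ab1* was 0.0996, 0.0916 and 0.103 in Ctrl and 0.104, 0.125 and 0.125 in LIP, a smaller difference that left the groups just apart (log2 difference 0.26, exact p = 0.1, adjusted p = 0.15). Both ER genes thus had higher ratios to their cytosolic constitutive form in every LIP library, although *Hsp90b1* itself was lower. *Hspa9* over *Hspa8* was 0.0432, 0.0296 and 0.041 in Ctrl and 0.0142, 0.0223 and 0.0208 in LIP (log2 difference -1.0, exact p = 0.1, adjusted p = 0.15). *Hspd1* over *Hspe1* was 0.745, 0.783 and 0.875 in Ctrl and 1.07, 0.987 and 0.843 in LIP, and the groups overlapped (log2 difference 0.27, exact p = 0.2, adjusted p = 0.24).

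**Figure D3:**
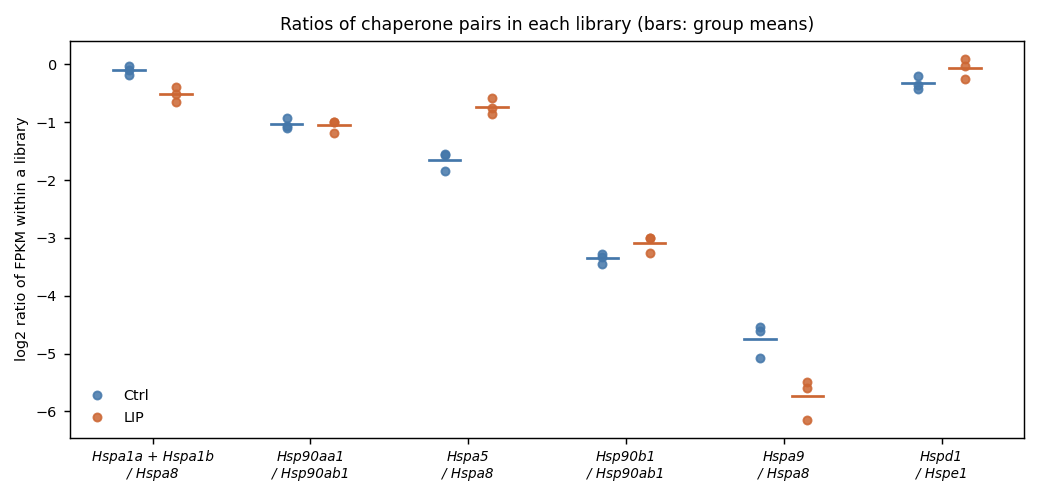
Log2 ratio of FPKM (y axis) for 6 chaperone pairs in each Ctrl and LIP library, with a bar at the group mean. LIP libraries lie apart from Ctrl libraries for 4 of the 6 pairs, above them for *Hspa5* over *Hspa8* and for *Hsp90b1* over *Hsp90ab1*, and overlap them for *Hsp90aa1* over *Hsp90ab1* and *Hspd1* over *Hspe1*.

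Sequence around the starts was searched in the 300-base RefSeq promoters of the 57 members that have one, on both strands. *Hsp90ab1*, *Hspa8*, *Hsp90aa1*, *Hspa9* and *Hspa13* are among the members not matched to a promoter, so they were not searched. The heat shock element of 3 alternating units, in a strict form without mismatch or gap, was found in 4 of the 57. These were *Hspd1*, *Hspe1*, *Hsph1* and *Dnajb6*, and 0.662% of all 27025 genes with a promoter hold one. Pairs of units with GAA before TTC were not searched. Such a pair stands in the sequence printed above for *Hspa1a* and *Hspa1b*, so a member without a match may still hold heat shock units. Of these 4, *Hspd1*, *Hspe1* and *Hsph1* were lower in LIP and *Dnajb6* had a log2 value of 0.07 and was not called. The element of *Hspd1* and that of *Hspe1* are the same stretch, shown above, so they are not separate hits. The element of *Hsph1* lies 15 to 27 bases after 1 of its starts. The shorter motif TTCNNGAA, which every longer element contains, was found in 6 of 57 members (10.5%) and 9.6% of genes. The CCAAT box, which is also part of the ER stress element, was found in 24 of 57 (42.1%) and 41.1%. A match in these windows is a description of letters and says nothing on binding.

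The partners and regulators of these chaperones were read from 5 lists. Of all genes tested, 26.5% were higher and 27.2% lower, which is the background for the counts in each list. Among heat shock factors and their binding protein, 2 genes were tested, of which 1 was lower and 0 higher, with *Hsbp1* at a log2 value of 0.34 and not called. *Hsf1*, the heat shock factor, had 55.1, 55.3 and 49.6 CPM in Ctrl and 23.0, 25.4 and 25.0 in LIP and was lower (log2 -1.12, standard error 0.147, adjusted p = 0.00011, edgeR). Of 22 tested cofactors of HSP90 and HSP70, 13 were lower and 2 higher, with a median of -0.54. The lowest were *Bag5*, an exchange factor, at -2.13, and *Fkbp4*, an immunophilin of steroid receptor complexes, at -1.59, with adjusted p-values of 0.000567 and 3.42e-06 (edgeR). Its relative *Fkbp5*, known as a target of glucocorticoids, went the other way, from 114, 59.4 and 94.4 CPM in Ctrl to 373, 372 and 354 in LIP (log2 2.03, standard error 0.201, adjusted p = 1.47e-05, edgeR). With neutrophil scaling *Fkbp5* had a log2 value of 0.16, smaller than that standard error. *Unc45a*, a myosin chaperone, was higher at 0.48 (adjusted p = 0.0423, edgeR) and at -1.40 with neutrophil scaling.

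Of the 14 subunits of the cytosolic chaperonin and of prefoldin, which fold actin and tubulin, 11 were lower and 0 higher, with a median of -1.0. All 8 chaperonin subunits were among the 11, at log2 values from -1.72 for *Cct3* to -0.81 for *Cct2*, and *Pfdn1* had -1.64 (adjusted p = 1.83e-06 for *Cct3* and 0.008 for *Pfdn1*, edgeR). Of 9 tested mitochondrial cofactors and proteases, 6 were lower and 0 higher, with a median of -1.15, led by *Grpel2*, an exchange factor for mortalin, at -2.07, and *Hscb*, a J protein of iron-sulfur cluster assembly, at -1.25 (adjusted p = 0.00146 and 0.00555, edgeR).

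Of 23 tested genes of ER folding and the unfolded protein response, 5 were higher, 7 lower and 11 not called, with a median of -0.22. That split was close to the 26.5% higher and 27.2% lower of all genes tested, and the genes named next are its extremes. *Xbp1*, a transcription factor of this response, had 152, 169 and 161 CPM in Ctrl and 407, 420 and 387 in LIP (log2 1.33, standard error 0.0973, adjusted p = 1.87e-06, edgeR), and *Ddit3*, which encodes CHOP, had a log2 value of 0.93 (adjusted p = 0.000533, edgeR). With neutrophil scaling they were at -0.54 and -0.94. The disulfide isomerase *Pdia4* and the BiP exchange factor *Sil1* were lower at -1.36 and -1.29 (adjusted p = 0.000144 and 0.0111, edgeR). The deposited gene counts do not separate spliced from unspliced *Xbp1* transcripts.

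**Figure D4:**
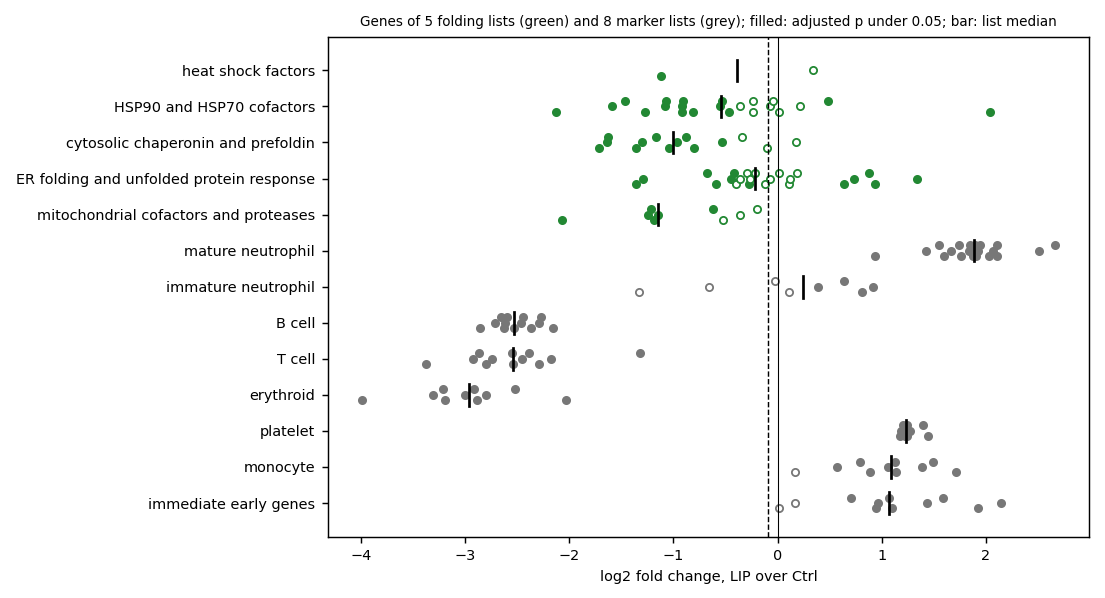
Log2 fold change (LIP over Ctrl, x axis) of each tested gene in 5 lists of folding partners (green) and 8 marker lists (grey), filled where the adjusted p was under 0.05, with a bar at each list's median and a dashed line at the median of all genes tested (-0.09). Chaperonin and mitochondrial cofactors lie mostly left of the line, B cell, T cell and erythroid markers lie furthest left, and mature neutrophil markers lie furthest right.

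Lymphocyte and erythroid markers were lower in LIP. All 12 tested T cell markers were lower, with a median of -2.54 and summed FPKM of 247 to 266 in Ctrl and 36.1 to 48.6 in LIP, and the 13 B cell markers had a median of -2.53, led in level by *Cd74* (log2 -2.27). The 10 tested erythroid markers had a median of -2.96 and summed FPKM of 180824 to 187054 and 19509 to 20220, with *Hba-a1* at -2.8. *Lck*, the most abundant T cell marker, was at -1.32. For comparison, the 52 tested members had a median of -0.40, and *Dnajc9* and *Hspb1*, among the lowest of them, were at -1.98 and -1.90.

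Other lists held markers that were higher in LIP. All 10 platelet markers were higher (median 1.24, summed FPKM 888 to 1132 in Ctrl and 1859 to 2184 in LIP, *Ppbp* at 1.23), as were 9 of 10 monocyte markers (median 1.09, 843 to 878 and 1035 to 1109, with *Ctss* at 0.16 not called). Of 8 tested immature neutrophil genes, 4 were higher, 0 lower and 4 not called (median 0.25, 1818 to 2134 and 2485 to 2667, *Ngp* at 0.81). Those higher were *Chil3*, *Ltf*, *Camp* and *Ngp*. *Elane*, *Fcnb*, *Prtn3* and *Cebpe* had log2 values of -1.33, -0.66, -0.02 and 0.10 and were not called. *Mpo*, under the filter and not tested, had a mean of 0.821 FPKM in Ctrl and 0.067 in LIP. The mature neutrophil genes had a median of 1.88, with *S100a9* at 2.03. Of 11 immediate early genes, which respond to handling of cells as some inducible chaperones do, 9 were higher (median 1.07, summed FPKM 8820 to 9677 and 15855 to 16435, *Junb* at 0.94). With neutrophil scaling the medians of the platelet, monocyte, immature neutrophil and immediate early lists were -0.64, -0.79, -1.64 and -0.80. The part of these cells and genes in the chaperone changes was not tested.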

How the data were processed

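PB neutrophil libraries, 3 Ctrl and 3 LIP, were grouped by their labels. The authors deposited 1 table of raw read counts per gene and of FPKM, computed by the authors from counts by length and library total. Per the labels, reads were trimmed with cutadapt 1.9, checked with FastQC and placed on GRCm38. The aligner, the counter and the use of strand are not given in the sources used here, so the 15 members that overlap another gene with FPKM of at least 1 are uncertain. Sample columns left unused numbered 0.

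The table lists transcript types per gene, and a member needed protein_coding among them; 24 of 70 have it alone, and 6 rows with a matching name without it were left out. Counts were tested with edgeR 4.0.16 (R 4.3.3, quasi-likelihood, TMM, Benjamini-Hochberg over all 10440 genes with mean FPKM of at least 1). The standard error is the absolute log2 fold change over the root of F. The biological coefficient of variation was 0.265, and 2 libraries of the same group had a chi-square of 51.9 to 126 per gene, far over sampling noise. Counting error is small beside this, and PCR copies are counted as reads. DESeq2 1.42.0, limma 3.58.1 (log2(FPKM + 1) or + 0.1) and other scalings and filters were alternatives. Members were matched to RefSeq promoters by symbol (57 of 70).

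The members, classes and lists were chosen with earlier results of these data known. Named genes are 18 set chaperones, the 5 highest and 5 lowest members called, the 5 most abundant, up to 2 called per direction in each folding list and the most abundant gene of each marker list; members outside this rule are given to account for all 70. The values of 1 member counted among the 70 are not reported here.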

Additional observations from a re-analysis of the deposited data

How the results depend on the processing

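For the 24 named members, 130 values from fits without 1 library kept direction and side of the threshold, 11 lost the call, 3 gained it and 0 turned. Leaving out haemoglobin genes changed no call among them. Members higher numbered 7 to 9 and members lower 19 to 23 without 1 library. Scaling on the mature neutrophil list gave 0 members higher and 51 lower, and 43 of all genes higher and 9371 lower. It turned *Hspa5* to -1.21, *Dnajc14* to -0.99, *Hspa13* to -0.60, *Dnajc28* to -0.53, *Dnaja1* to -1.66, *Dnajc17* to -0.87 and *Hspbap1* to -0.79, since its factors lower every gene alike. *Dnaja1* was also turned by library totals (-0.10) and by limma with either pseudocount (-0.0903 and -0.0918). A filter of FPKM 5, which tests fewer genes, gave 4 members higher, and 1768 of all genes higher and 1869 lower. Limma on log2(FPKM + 1) gave 4271 of all genes lower. Members listed as protein_coding alone, a choice made after seeing the data that leaves 14 tested, gave 1 higher and 7 lower.

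Class medians relative to the median gene were the following. Inducible members were at -0.86 in limma, -1.0 with FPKM 5, -0.59 without a filter and -0.70 with filterByExpr (-0.82 to -0.71 without 1 library). Constitutive members were at -0.63 with FPKM 5 and -0.22 without a filter (-0.49 to -0.31). ER members turned to -0.14 with FPKM 5 and were at 0.41 without a filter (0.14 to 0.29). Mitochondrial members were at -0.58, -1.35, -0.67 and -0.78 in these 4 settings (-0.92 to -0.70). Cytosolic and nuclear J proteins turned to 0.0171 without a filter (-0.31 to -0.11). The causes were not tested. Without 1 library the HSP90 ratio ran from -0.0607 to 0.0376.

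Same-numbered libraries are different mice, and their deviations correlated at 0.0212, 0.0562 and 0.0364, so the numbers were not taken as pairs, and not every library correlated best with its own number. With a replicate block, 9 members were higher and 22 lower, and 2724 and 2822 of all genes. The block changed no call of a named member, and the 6 ratios kept their values with exact p from 0.25, the smallest 3 pairs allow, to 0.75. Some members under the filter had under 10 reads in a library. The filter is on FPKM, so read numbers do not follow it strictly. *Dnajb14*, not tested, had 498 to 982 reads per library, and *Hspb11*, tested, had 92 to 218.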
